A study of Mus musculus with 6 samples.

Results

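The 10 genes described here build, load and regulate MHC class I molecules in mouse colon tumours. They were chosen by symbol as B2m, H2-K1, H2-D1, Tap1, Tap2, Tapbp, Psmb8, Psmb9, Psmb10 and Nlrc5. All 10 had a row among the 53700 genes of the deposited count table, and all 10 were among the 19127 genes that passed the filter on low counts. Polyadenylated RNA of whole colon tumours, separated from the muscle beneath them, was sequenced in 2 groups of 3 tumours, each treated as coming from its own mouse. The APC-WT mice had received doxycycline for 10 days, kept their endogenous Tcf7l2 expression and were cachectic, meaning that they had the wasting syndrome of advanced cancer. The APC-KI mice had received doxycycline for 6 weeks, which represses Tcf7l2 throughout the body in this genotype, and had recovered from wasting. Both groups ate food with 100 mg/kg doxycycline. Genotype, time on doxycycline and cachexia state therefore cannot be told apart here. The strain and its H2 haplotype, the animals' age and sex, and the promoter behind the Tcf7l2 repression are not given in the labels.

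MHC class I molecules show peptides from inside the cell to cytotoxic T cells. A heavy chain, such as those encoded by H2-K1 and H2-D1, pairs with the light chain beta-2-microglobulin from B2m. Peptides are cut in the cytosol by the proteasome, carried into the endoplasmic reticulum by the TAP transporter and loaded with the help of tapasin. Interferon gamma raises many of these genes, and in cells that receive it the catalytic subunits encoded by Psmb8, Psmb9 and Psmb10 take the places of Psmb5, Psmb6 and Psmb7 to form the immunoproteasome. NLRC5 is a transactivator that is brought to class I promoters by factors bound at a conserved set of elements, called S, X and Y.

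The promoter sequences of B2m, H2-K1 and H2-D1 are shown first because these 3 genes shared an arrangement of motifs. They are stretches upstream of the annotated start from RefSeq (GRCm38.p6), written 5′ to 3′ on the strand of the gene. Capitals mark an X2-like motif (TGACG), a Y-like motif (ATTGG or its reverse complement), an interferon regulatory factor core (AANNGAAA or its reverse complement) and a kappa-B motif (GGGNNTTCC), each searched on both strands.
B2m, chr2:122147544-122147644, plus strand: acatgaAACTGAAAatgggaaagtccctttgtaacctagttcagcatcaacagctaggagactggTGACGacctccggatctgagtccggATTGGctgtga
H2-K1, chr17:34000353-34000464, minus strand: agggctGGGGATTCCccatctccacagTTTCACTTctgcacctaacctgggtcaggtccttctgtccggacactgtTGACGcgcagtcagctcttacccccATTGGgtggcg
H2-D1, chr17:35262917-35263051, plus strand: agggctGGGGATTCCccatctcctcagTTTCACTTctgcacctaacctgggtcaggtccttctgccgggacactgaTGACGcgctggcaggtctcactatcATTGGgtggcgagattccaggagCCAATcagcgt

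In each of the 3 genes the Y-like motif began 25 bases after the X2-like motif. The same pair at this spacing was found in 31 of 32851 promoter windows of all genes (0.0944%), which belonged to 27 genes. Of 22 H2-K, H2-D, H2-Q, H2-T and H2-M genes with a window 3 held the pair, namely H2-K1, H2-D1 and H2-M3. The spacing was seen in these sequences before it was counted. Alone the motifs were common, with the X2-like motif in 20.8%, the Y-like motif in 37.4%, the interferon regulatory factor core in 23.9% and the kappa-B motif in 5.82% of windows. The printed stretches of H2-K1 and H2-D1 matched at 101 of 112 aligned bases (90.2%). A match describes the letters in the window and does not show that a factor binds there.

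Tap1 and Psmb9 lie head to head on chromosome 17, and their annotated starts are 226 bases apart, so that 1 stretch lies upstream of both. It is shown on the strand of Tap1, with an X2-like and a Y-like motif in capitals.
Tap1 and Psmb9, chr17:34187331-34187555, plus strand: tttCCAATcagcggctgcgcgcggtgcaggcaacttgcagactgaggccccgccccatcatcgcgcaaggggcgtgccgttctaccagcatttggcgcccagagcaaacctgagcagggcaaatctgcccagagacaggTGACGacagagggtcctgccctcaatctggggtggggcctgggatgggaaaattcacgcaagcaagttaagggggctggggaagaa
The window of Psmb8 held 1 match to the GAS motif (TTCNNNGAA, in 8.30% of windows), and that of Tapbp held Y-like motifs only. Psmb10 had a window with no match to the 5 motifs. Promoter sequences were matched for 8 of the 10 genes, and Tap2 and Nlrc5 are named only.

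**Figure D1:**
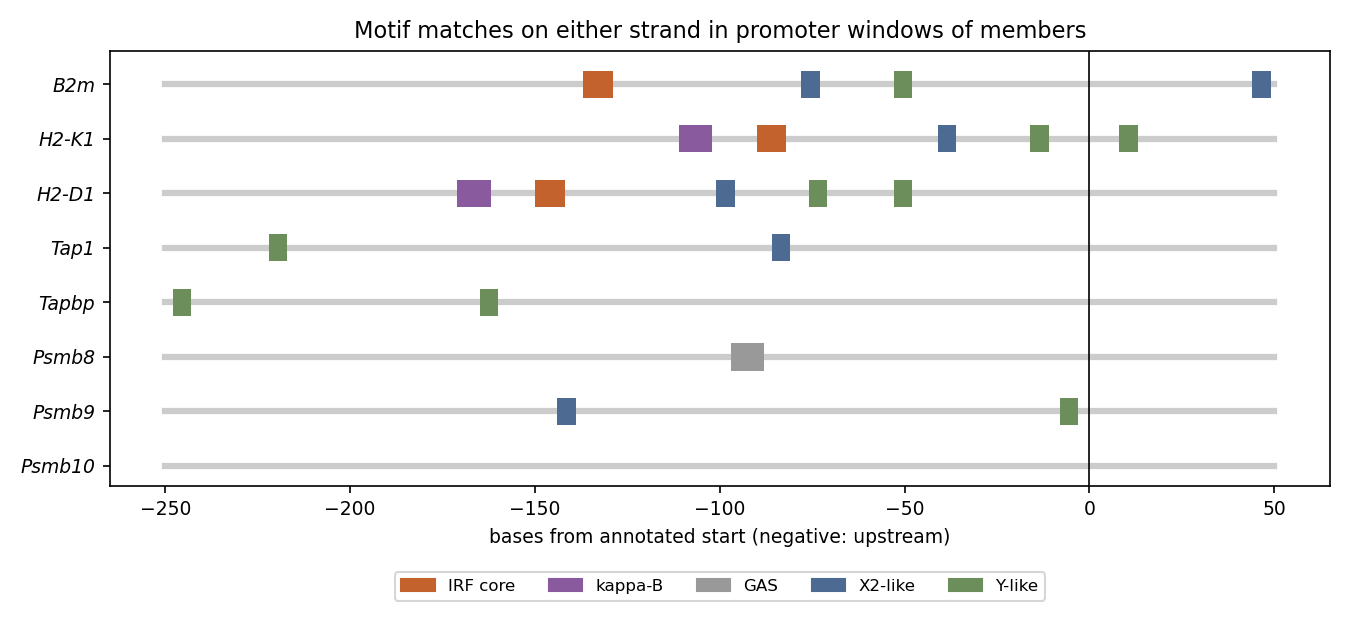
Positions of 5 motifs, on either strand, in the promoter windows of 8 members, with the distance in bases from the annotated start on the x axis and 1 gene per line. B2m, H2-K1 and H2-D1 each hold an X2-like and a Y-like motif whose starts lie 25 bases apart.

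The libraries held between 51777342 and 63921108 counts. Tcf7l2, the gene repressed by design, stood at 35.6 to 44.1 CPM in APC-WT and at 4.48 to 6.9 CPM in APC-KI tumours, where CPM is the count scaled to a common library size with TMM factors. Over all genes, 2388 were higher and 1459 lower in APC-KI tumours at an adjusted p under 0.05 (edgeR). With library totals only in place of TMM factors these numbers were 1978 and 2844, and the median log2 change of all genes moved by −0.116. APC-WT replicates 1 and 2 held 19164 and 16055 counts of Y-linked genes and the other 4 libraries held 0, so each member is also given from those 4 alone, named Y-negative here. That fit holds a single APC-WT tumour, whose spread is taken to equal that of the APC-KI group.

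All 10 members were higher in every APC-KI tumour than in every APC-WT tumour. Of the 10, 8 passed the test as higher and 0 as lower, and the median log2 change was 0.97. H2-K1 and B2m did not pass. Among all genes tested, 20.1% were called in either direction, 12.5% were called as higher and 7.63% as lower, and 23% had every APC-KI library above every APC-WT library. The median log2 change of all genes was −0.016. The lowest APC-KI library was between 1.17-fold and 1.64-fold above the highest APC-WT library, with the narrowest gap for B2m and the widest for Psmb8. All 10 genes were highest in APC-KI replicate 2, and all 10 had their highest APC-WT level in replicate 3, the APC-WT library without Y-linked counts. The share of all genes with these orders of libraries was not counted. In these bulk samples more cells that express a gene and more RNA per cell cannot be told apart.

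The count of members that passed depended on which libraries were fitted, and so did the share of all genes called. Without APC-WT replicate 1, 2 members and 12.6% of all genes passed, and without APC-WT replicate 2, 1 member and 5.91%. Leaving out APC-KI replicate 1 gave 3 members and 6.48% of all genes, and leaving out APC-KI replicate 2 gave 4 members and 7.02%. The count was 9 without APC-WT replicate 3 (19.5% of all genes) and 8 without APC-KI replicate 3 (20% of all genes). In the 4 Y-negative libraries 0 members passed in edgeR and 3 had an unadjusted p under 0.05. All 10 log2 changes were positive there, with a median of 0.76, and 1.62% of all genes were called. As no member overlapped between the groups, leaving out libraries could hardly turn the sign of a change. On all 6 libraries DESeq2 called 10 of the 10 members and 25.1% of all genes, and limma-voom 9 members and 20.6%.

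**Figure D2:**
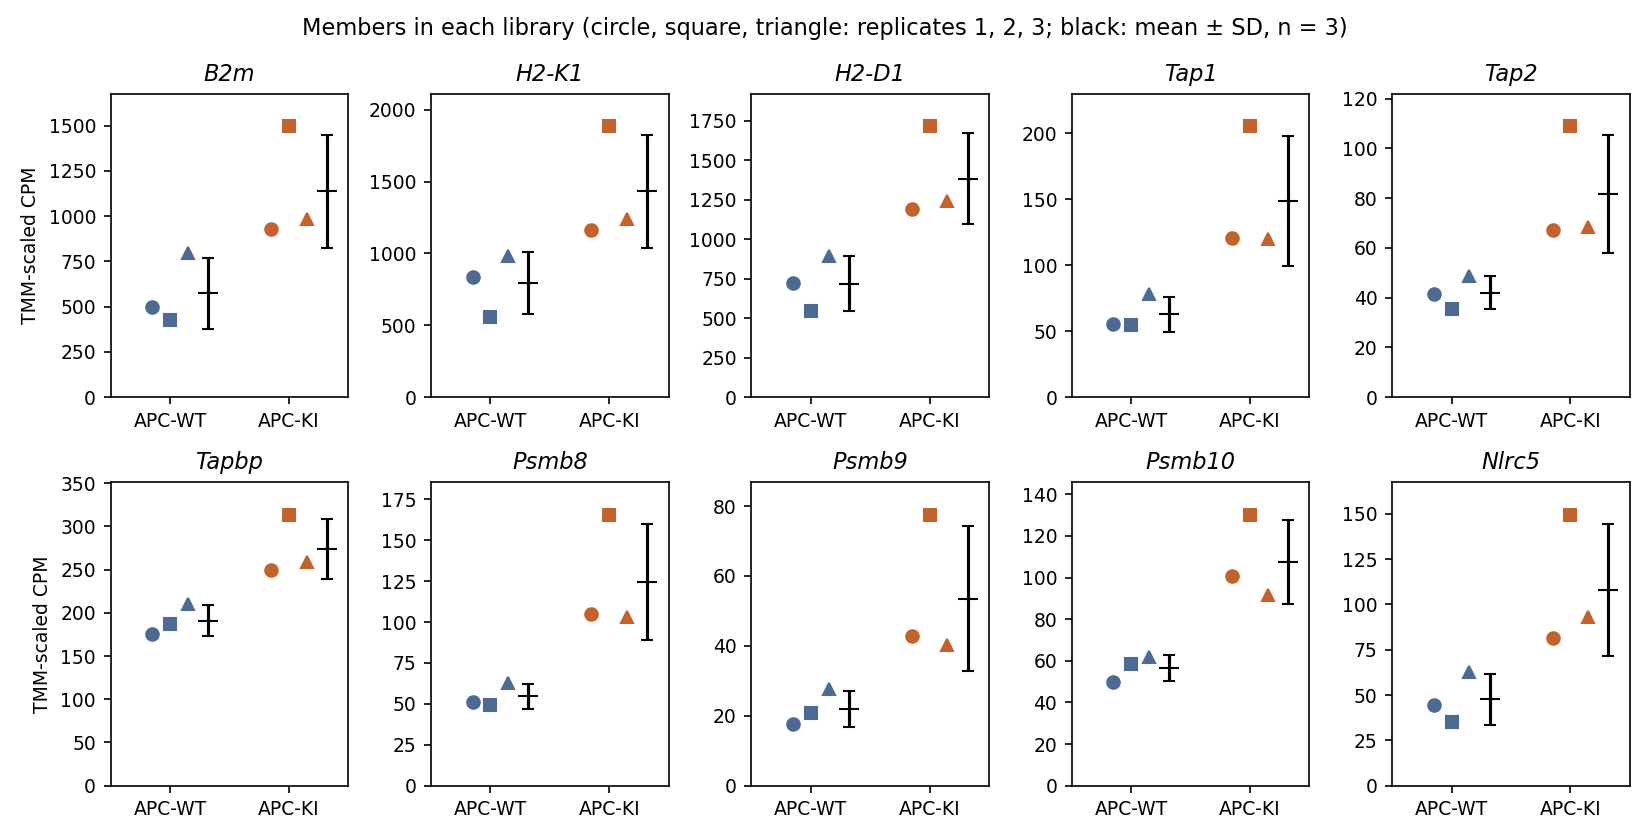
TMM-scaled CPM of each member in the 6 tumours, with replicates 1, 2 and 3 as circles, squares and triangles and the mean ± SD (n = 3) in black. For every gene the 3 APC-KI values lie above the 3 APC-WT values, and APC-KI replicate 2 is the highest.

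Beta-2-microglobulin and the heavy chains were the most abundant of the 10. B2m (ENSMUSG00000060802), the shared light chain, had 497, 426 and 796 CPM in APC-WT replicates 1 to 3 and 928, 1498 and 984 CPM in APC-KI replicates 1 to 3. The groups did not overlap, and APC-WT replicate 3 came close to APC-KI replicate 1. Its log2 change was 0.99 ± 0.29 (SE), with an edgeR adjusted p of 0.0558 that missed the threshold. H2-K1 (ENSMUSG00000061232), which encodes the K heavy chain, had 839, 559 and 981 CPM in the APC-WT tumours, against 1165, 1886 and 1242 CPM in the APC-KI tumours. Here APC-WT replicate 2 was low and APC-KI replicate 2 was high, the other libraries lying between them. The log2 change of 0.85 ± 0.26 did not pass (edgeR adjusted p = 0.0649). H2-D1 (ENSMUSG00000073411), which encodes the D heavy chain, had 721, 543 and 893 CPM in the APC-WT tumours, against 1190.0, 1717 and 1244 CPM in the APC-KI tumours. The rise of H2-D1 was 1.92-fold (log2 change 0.94 ± 0.22, edgeR adjusted p = 0.0296), so that of the 3 chains only H2-D1 passed.

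In the 4 Y-negative libraries the log2 changes were 0.51 for B2m, 0.54 for H2-K1 and 0.63 for H2-D1, and none of the 3 passed in edgeR (adjusted p = 0.403, 0.382 and 0.236). B2m passed with limma-voom (adjusted p = 0.0437) and without APC-WT replicate 3 (edgeR adjusted p = 0.0189), and with DESeq2 (adjusted p = 0.00394), while of the 17 alternative fits H2-K1 passed in DESeq2 alone (adjusted p = 0.00946). The ratio of H2-K1 and H2-D1 counts to B2m counts within a library, not corrected for exon length, was 2.69 ± 0.40 in APC-WT and 2.49 ± 0.07 in APC-KI tumours (SD, n = 3 each). This ratio overlapped between the groups (exact two-sided permutation p = 0.6, adjusted p = 0.72 over 6 ratios). Class I heavy chain genes resemble each other and reads can be shared between them, so all 32 rows of H2-K, H2-D, H2-Q, H2-T and H2-M genes and pseudogenes were also summed. The summed row had a log2 change of 0.91 ± 0.23 (edgeR adjusted p = 0.0401), and H2-K1 and H2-D1 made up 79.7% to 82.0% of it in the 6 libraries.

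Of 17 other class I heavy chain and class I-like genes, 7 rose and 0 fell, with a median log2 change of 0.94 and 12 of the 17 higher in every APC-KI tumour. Counts of calls in this and the later pathway lists stand against 12.5% of all genes called higher and 7.63% called lower. Over all genes 23% were higher in every APC-KI tumour. Those with the smallest p were H2-Q10 (log2 change 1.94 ± 0.23), the neonatal Fc receptor chain Fcgrt (0.86 ± 0.12), H2-Q2 (1.13 ± 0.19) and H2-T22 (0.97 ± 0.19), with edgeR adjusted p of 0.00595, 0.00857, 0.0123 and 0.0194. Cd1d1, which presents lipids, stood at −0.07 ± 0.15, and Mr1, which presents microbial metabolites, at 0.25 ± 0.14, and neither passed (edgeR adjusted p = 0.752 and 0.238). Both were picked once their values were known.

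Both chains of the peptide transporter and its partner tapasin rose. Tap1 (ENSMUSG00000037321), one chain of the peptide transporter, had 55.6, 54.4 and 78.0 CPM in the APC-WT tumours, against 120.5, 206 and 120.1 CPM in the APC-KI tumours. APC-KI replicate 2 stood far above the other APC-KI libraries, which were alike. Tap1 rose 2.37-fold (log2 change 1.25 ± 0.26, edgeR adjusted p = 0.0228). Tap2 (ENSMUSG00000024339), the other chain, had 41.6, 35.4 and 48.8 CPM in the APC-WT tumours, against 67.2, 109 and 68.4 CPM in the APC-KI tumours. Its libraries fell into the same order as those of H2-K1 within APC-KI, and it rose 1.94-fold (log2 change 0.96 ± 0.22, edgeR adjusted p = 0.0290). Tapbp (ENSMUSG00000024308) encodes tapasin, which holds the empty heavy chain at the transporter, and had 175, 187 and 211 CPM in the APC-WT tumours, against 249.8, 314 and 259 CPM in the APC-KI tumours. Its rise was the smallest of the 10 genes at 1.44-fold (log2 change 0.52 ± 0.12, edgeR adjusted p = 0.0259).

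The ratio of Tap1 to Tapbp counts was 0.326 ± 0.040 in APC-WT and 0.534 ± 0.106 in APC-KI tumours (SD, n = 3 each). It was higher in every APC-KI tumour, with an exact two-sided permutation p of 0.1, the smallest that 3 against 3 allows (adjusted p = 0.15 over 6 ratios). This ratio was added after values were seen. Tapbp had the smallest change of the 10 genes, so the direction of the ratio followed from the choice. In the 4 Y-negative libraries the log2 changes were 0.93 for Tap1, 0.74 for Tap2 and 0.38 for Tapbp, and none passed in edgeR (adjusted p = 0.291, 0.308 and 0.27). Of 10 other genes of peptide trimming, loading and folding, 3 rose and 0 fell, with a median log2 change of 0.36. They were Tapbpl, which encodes the tapasin-related editor TAPBPR (0.84 ± 0.10, edgeR adjusted p = 0.00595), the cytosolic aminopeptidase Npepps (0.44 ± 0.09, edgeR adjusted p = 0.0186) and the chaperone Hspa5 (0.80 ± 0.21, edgeR adjusted p = 0.0389). Calr, which encodes calreticulin of the loading complex, stood at 0.49 ± 0.16 on the log2 scale and did not pass (edgeR adjusted p = 0.0731).

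All 3 inducible catalytic subunits of the proteasome rose. Psmb8 (ENSMUSG00000024338), which encodes beta5i, had 50.9, 49.6 and 63.0 CPM in the APC-WT tumours, against 105, 166 and 103 CPM in the APC-KI tumours. The groups were well apart, and Psmb8 rose 2.28-fold (log2 change 1.19 ± 0.21, edgeR adjusted p = 0.0144). Psmb9 (ENSMUSG00000096727), which encodes beta1i, had 17.6, 20.8 and 27.6 CPM in the APC-WT tumours, against 42.8, 77.6 and 40.3 CPM in the APC-KI tumours. It rose 2.43-fold, the largest change of the 10 genes, with a wide spread among APC-KI libraries (log2 change 1.28 ± 0.30, edgeR adjusted p = 0.0309). Psmb10 (ENSMUSG00000031897) encodes beta2i and lies on chromosome 8, away from the H2 region of chromosome 17. It had 49.7, 58.3 and 61.9 CPM in the APC-WT tumours, against 101, 130.3 and 91.4 CPM in the APC-KI tumours. Psmb10 rose 1.90-fold and had the smallest adjusted p of the 10 genes (log2 change 0.92 ± 0.15, edgeR adjusted p = 0.0112). In the 4 Y-negative libraries the log2 changes were 0.98 for Psmb8, 0.95 for Psmb9 and 0.79 for Psmb10, and none passed in edgeR (adjusted p = 0.219, 0.344 and 0.144).

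The constitutive subunits differed little between the groups. Psmb5, Psmb6 and Psmb7 summed to 306 to 317 CPM in APC-WT and to 311 to 313 CPM in APC-KI tumours. Their log2 changes were −0.07 ± 0.08, 0.05 ± 0.07 and −0.02 ± 0.07, and 0 of the 3 passed in edgeR, with 0 at an unadjusted p under 0.05. Each inducible subunit takes the place of 1 constitutive subunit, so their counts were compared within each library, where the scaling of libraries has no part. The counts were not divided by exon length, which was 1628 bases for Psmb8 and 899 for Psmb5. A ratio above 1 therefore does not mean more transcripts of the inducible subunit. The ratio of Psmb8 to Psmb5 was 0.810, 0.706 and 0.864 in APC-WT and 1.60, 2.46 and 1.61 in APC-KI tumours. The lowest APC-KI value was well above the highest APC-WT value. The ratio of Psmb9 to Psmb6 was 0.136, 0.165 and 0.223 in APC-WT and 0.352, 0.585 and 0.291 in APC-KI tumours. The ratio of Psmb10 to Psmb7 was 0.437, 0.496 and 0.514 in APC-WT and 0.814, 1.16 and 0.822 in APC-KI tumours. None of the 3 ratios overlapped between the groups. They were 2.34-fold, 2.29-fold and 1.91-fold higher in APC-KI tumours, with log2 differences of 1.23 ± 0.22, 1.19 ± 0.36 and 0.93 ± 0.18 (SE, n = 3 each). The exact two-sided permutation p was 0.1 for each, the smallest that 3 against 3 allows (adjusted p = 0.15 over 6 ratios). In the 4 Y-negative libraries the log2 differences were 1.10, 0.81 and 0.84.

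**Figure D3:**
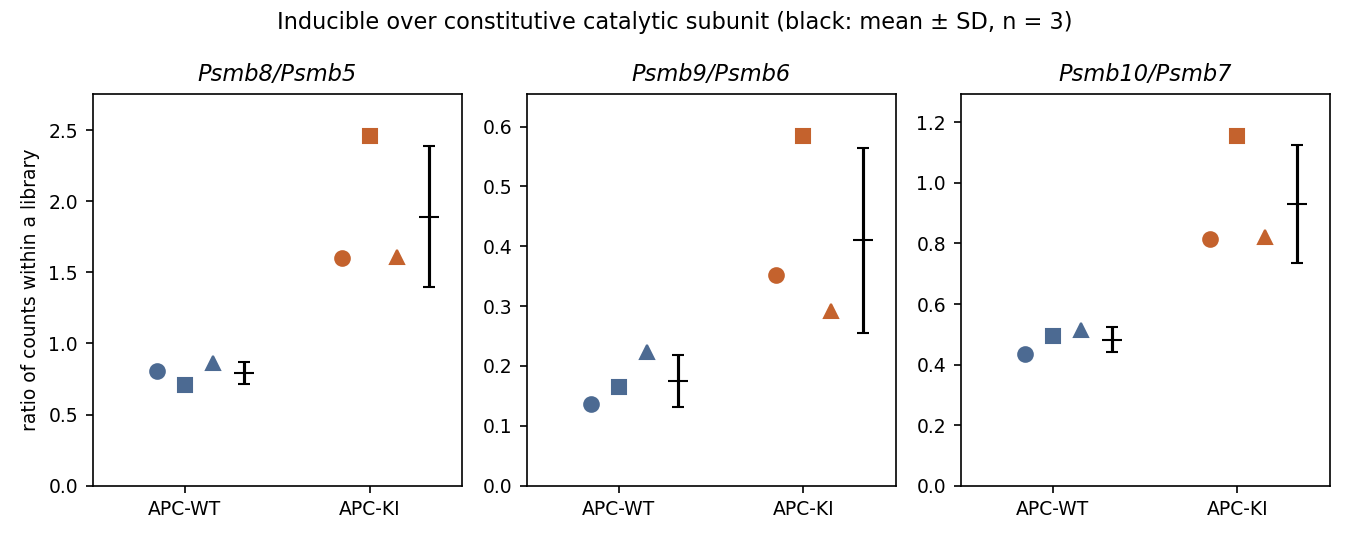
Ratio of the counts of an inducible to its constitutive catalytic subunit within each library, by group, with the mean ± SD (n = 3) in black and replicates 1, 2 and 3 as circles, squares and triangles. All 3 ratios are higher in every APC-KI tumour, by 1.91-fold to 2.34-fold on average.

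Of 11 other 20S core subunits 0 passed in either direction in edgeR, with log2 changes from −0.08 to 0.10. Of 17 subunits of the 19S regulator 0 passed, with log2 changes from −0.15 to 0.05. In both lists 0 genes had an unadjusted p under 0.05 in edgeR. Of 9 activator and assembly genes 2 rose and 1 fell. The activator PA28, which opens the core for peptide production and is raised by interferon gamma, consists of the products of Psme1 and Psme2, and both rose. Psme1 had a log2 change of 0.34 ± 0.08 and Psme2 of 0.47 ± 0.13 (edgeR adjusted p = 0.027 and 0.045). Psme3, which encodes the nuclear activator PA28 gamma, stood at −0.19 ± 0.07 and did not pass (edgeR adjusted p = 0.107). The assembly chaperone gene Psmg2 fell by 0.43 (SE 0.09, edgeR adjusted p = 0.0234), and Pomp, which helps the core mature, had a log2 change of 0.13 ± 0.08 (edgeR adjusted p = 0.268).

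**Figure D4:**
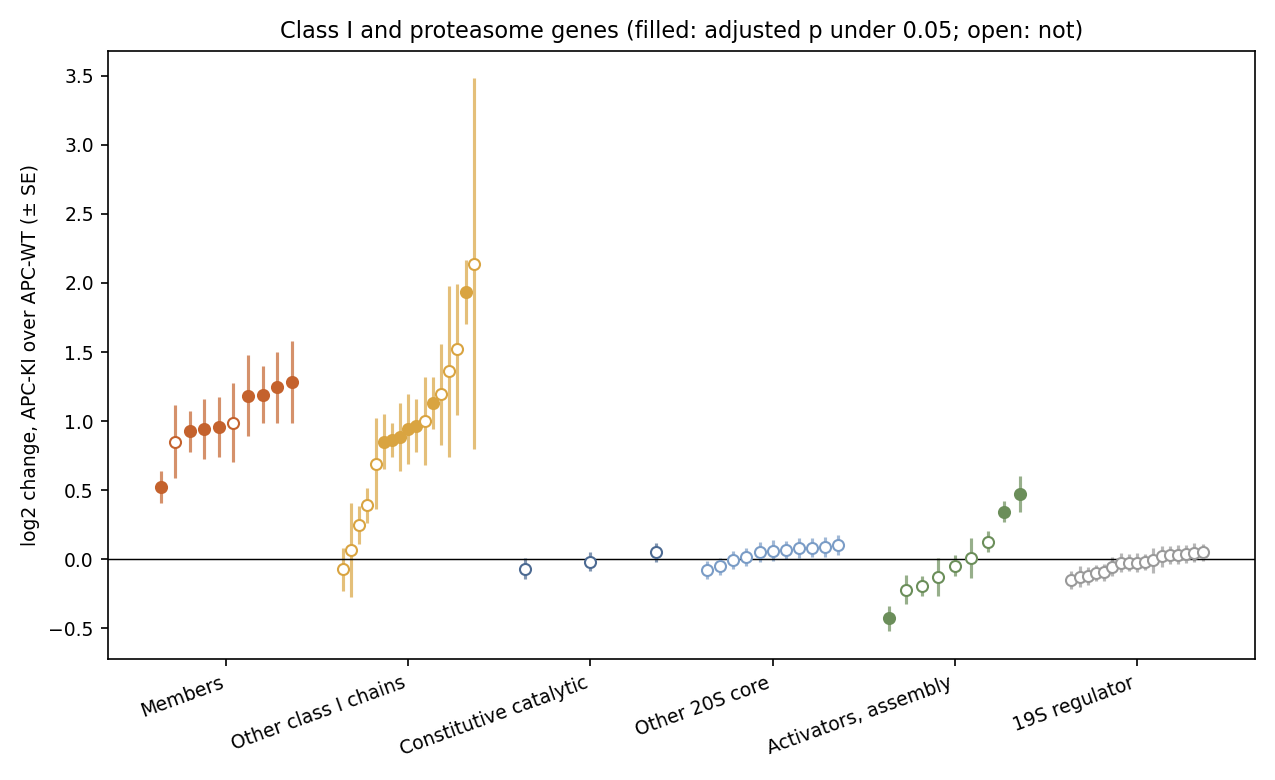
Log2 change (APC-KI over APC-WT, ± SE) of the members, other class I heavy chains and proteasome genes, ordered by size within each group, with filled points for an edgeR adjusted p under 0.05. The members lie between 0.52 and 1.28, while the constitutive catalytic, other core and 19S subunits lie between −0.15 and 0.10.

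Nlrc5 (ENSMUSG00000074151), the transactivator of class I genes, had 44.3, 35.4 and 63.0 CPM in the APC-WT tumours, against 81.5, 149.6 and 93.3 CPM in the APC-KI tumours. Its order of libraries was that of B2m, with APC-WT replicate 2 lowest and APC-KI replicate 2 highest. Nlrc5 rose 2.27-fold (log2 change 1.18 ± 0.29, edgeR adjusted p = 0.0373). Its log2 change in the 4 Y-negative libraries was 0.78 (edgeR adjusted p = 0.359). Of 13 other regulators of such promoters 1 rose and 3 fell, where 12.5% of all genes rose and 7.63% fell. Ciita, the related transactivator of class II genes, rose from 13.7, 16.3 and 17.7 CPM to 32.8, 73.1 and 27.2 CPM (log2 change 1.48 ± 0.38, edgeR adjusted p = 0.0396). The 3 that fell were Rfx5, which encodes a subunit of the factor bound at the X element (fell by 0.43, SE 0.11), Nfyb, which encodes a subunit of the factor bound at the Y element (fell by 0.29, SE 0.07), and the NF-kappa-B subunit gene Relb (fell by 0.38, SE 0.07), with edgeR adjusted p of 0.0388, 0.0278 and 0.0164. Rfxap, which encodes a partner of RFX5, stood at 0.25 ± 0.12, and Nfyc, which encodes a partner of the Nfyb product, at −0.14 ± 0.07, and neither passed (edgeR adjusted p = 0.182 and 0.184).

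Genes upstream of this programme were examined from lists of interferons, their receptors and their signalling. Ifng, which encodes interferon gamma, had 7, 10 and 9 counts in APC-WT and 37, 79 and 15 counts in APC-KI tumours. These are few reads, and the spread within APC-KI was wide, but the groups did not overlap (log2 change 2.46 ± 0.66, edgeR adjusted p = 0.0442). Ifngr1, one chain of its receptor, rose from 134, 137 and 136 CPM to 265, 273 and 216 CPM (log2 change 0.89 ± 0.10, edgeR adjusted p = 0.00532), and Ifngr2, the other chain, did not pass at 0.20 ± 0.09. Il10rb, a receptor chain shared by interferon lambda and interleukin 10, rose by 0.55 ± 0.08 on the log2 scale (edgeR adjusted p = 0.00922). Of the 10 listed ligands and receptors 7 passed the filter on low counts, of which Ifng, Ifngr1 and Il10rb rose and 0 fell. Of 13 signalling genes 6 rose and 0 fell, with a median of 0.37. Irf1, a factor induced by interferon gamma that acts at class I and immunoproteasome promoters, rose from 122, 166 and 175 CPM to 304, 355 and 240.3 CPM (log2 change 0.96 ± 0.19, edgeR adjusted p = 0.0186). Jak2, Socs1, Stat2 and Irf2 rose by 0.37 ± 0.07, 1.43 ± 0.30, 0.84 ± 0.18 and 0.35 ± 0.08 on the log2 scale (edgeR adjusted p = 0.0173, 0.0219, 0.0232 and 0.0268).

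Levels were compared between genes per kilobase of exon, with exon lengths from GENCODE M21, which is not the annotation the counts were made on. In APC-KI tumours B2m was highest at 1322 ± 365 CPM per kb, followed by H2-K1 at 865 ± 239 and H2-D1 at 658 ± 138 (SD, n = 3). The ranges of neighbours among these 3 overlapped. Tapbp (94.6 ± 11.9), Psmb10 (82.0 ± 15.5) and Psmb8 (76.5 ± 21.9 CPM per kb) formed the next step, and their ranges over libraries overlapped. Tap1 followed at 50.4 ± 16.7, Psmb9 at 39.6 ± 15.4, Tap2 at 23.7 ± 6.91 and Nlrc5 at 13.3 ± 4.48 CPM per kb. Neighbours from Psmb8 down to Tap2 overlapped over libraries, while Nlrc5 lay below Tap2 in all comparisons between APC-KI libraries. In APC-WT tumours Psmb5 stood at 76.4 ± 5.82 and Psmb8 at 33.5 ± 4.54 CPM per kb, and in APC-KI tumours these levels were 72.9 ± 1.80 and 76.5 ± 21.9. In APC-KI replicates 1 to 3 Psmb8 had 64.3, 102 and 63.4 CPM per kb and Psmb5 72.7, 74.8 and 71.3, so that only replicate 2 had more Psmb8. The other inducible subunits had lower APC-KI means than their counterparts. Psmb9 had 39.6 ± 15.4 against 164 ± 10.8 for Psmb6, and Psmb10 had 82.0 ± 15.5 against 99.9 ± 6.02 for Psmb7.

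Tap1 and Psmb9, which share the stretch between their starts, kept nearly the same proportion in every library. The ratio of Tap1 to Psmb9 counts was 3.17, 2.61 and 2.82 in APC-WT and 2.82, 2.65 and 2.98 in APC-KI tumours. It overlapped between the groups (log2 difference −0.02 ± 0.09, exact two-sided permutation p = 0.9, adjusted p = 0.9 over 6 ratios). This ratio was added after values were seen. Psmb8, which does not share that stretch, had a similar log2 change (1.19, against 1.25 for Tap1 and 1.28 for Psmb9). Its ratio to Tap1 was not tested, so a steady proportion is not shown to be particular to Tap1 and Psmb9. The genes whose log2 CPM over the 6 libraries was most like the mean profile of the 10 members were Fcgr4, an Fc receptor of myeloid cells (Pearson r = 0.998), the class I gene H2-T23 (0.998), the endocytic receptor Lrp1 (0.997), the endothelial adhesion molecule Esam (0.997) and the class I gene H2-T22 (0.997), out of 11335 genes compared. These r values are a description over 6 libraries in 2 groups, and the difference between the groups enters each of them.

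Marker lists of several cell types were also summed in each library, and their counts of calls stand against 12.5% of all genes called higher and 7.63% called lower. The 10 pan-leukocyte markers, none of which was at 0 in any library, summed to 332 to 519.6 CPM in APC-WT and to 556 to 909.9 CPM in APC-KI tumours. Like the members, all 10 were highest in APC-KI replicate 2 and had their highest APC-WT level in replicate 3. Such orders of libraries, here and below, have no share over all genes beside them, and what they reflect was not tested. Replicate 3 was also the highest APC-WT library for 8 of 8 smooth muscle, 7 of 8 fibroblast and 7 of 8 endothelial markers. It was so for 9 of 12 macrophage and dendritic cell and 7 of 12 epithelial markers. The counts were 6 of 15 for T and NK cell, 5 of 10 for B and plasma cell and 1 of 6 for neutrophil markers. Of the pan-leukocyte markers Cd52 and Rac2 rose (log2 changes 1.11 ± 0.26 and 0.73 ± 0.18, edgeR adjusted p = 0.0307 and 0.0351). Coro1a did not pass (0.88 ± 0.25, edgeR adjusted p = 0.0538), and the pan-leukocyte list had a median of 0.71. Macrophage and dendritic cell markers rose for 3 of 12 and fell for 0, with a sum of 463 to 602 CPM in APC-WT and 644 to 916 CPM in APC-KI tumours. They were Cd14, Itgax and Itgam (0.91 ± 0.09, 1.09 ± 0.21 and 1.20 ± 0.27, edgeR adjusted p = 0.00388, 0.0173 and 0.0257). The macrophage and dendritic cell list had a median of 0.50. In it Adgre1, Cd68, C1qa, C1qb and C1qc, picked once their values were known, overlapped between the groups and did not pass. Their log2 changes lay between 0.17 and 0.42.

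B and plasma cell markers rose for 7 of 10 and fell for 0, with a sum of 567 to 877 CPM in APC-WT and 3518 to 9664 CPM in APC-KI tumours. The smallest p belonged to Jchain, Igha and Mzb1 (3.30 ± 0.38, 3.23 ± 0.40 and 3.40 ± 0.45). T and NK cell markers rose for 6 of the 14 tested and fell for 2, with a sum of 37.9 to 51.7 CPM in APC-WT and 50.4 to 78.4 CPM in APC-KI tumours, so that this sum overlapped between the groups. The smallest p of that list belonged to Cd5, Trac and Cd2 (1.23 ± 0.23, 1.02 ± 0.20 and 1.41 ± 0.30). The 2 that fell were Gzma and Gzmb, granule enzymes of cytotoxic cells picked once their values were known (−1.77 ± 0.45 and −1.26 ± 0.32). Other genes of cytotoxic cells in the list went the other way and were picked likewise. Cd8a rose (1.49 ± 0.36, edgeR adjusted p = 0.0331). Prf1 and Nkg7 stood at 0.88 ± 0.32 and 1.23 ± 0.51 and did not pass (edgeR adjusted p = 0.0955 and 0.127). Neutrophil markers rose for 3 of 6 and fell for 0, with Ly6g, Cxcr2 and Retnlg at 1.67 ± 0.29, 1.01 ± 0.20 and 1.08 ± 0.29.

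Epithelial markers rose for 7 of 12 and fell for 0, with a sum of 9683 to 10839 CPM in APC-WT and 12632 to 15304 CPM in APC-KI tumours, and Lgals4, Cldn7 and Krt20 had the smallest p (0.86 ± 0.11, 0.46 ± 0.09 and 2.44 ± 0.49). Of these 12 markers 2 were highest in APC-KI replicate 2, and of 8 smooth muscle markers 0 were. Highest there were 10 of 10 B and plasma cell and 11 of 12 macrophage and dendritic cell markers. So were 12 of 15 T and NK cell, 6 of 6 neutrophil and 6 of 8 endothelial markers. Fibroblast markers rose for 2 of 8 (Dcn and Thy1, 1.69 ± 0.37 and 0.83 ± 0.20), endothelial markers for 3 of 8 (Tie1, Vwf and Plvap, 0.68 ± 0.16, 0.61 ± 0.15 and 0.64 ± 0.15) and smooth muscle markers for 8 of 8 (among them Myh11, Synm and Des, 2.52 ± 0.31, 2.13 ± 0.26 and 2.56 ± 0.49), and 0 of these fell. The fibroblast sum was 873 to 2395 CPM in APC-WT and 2749 to 3843 CPM in APC-KI tumours, and 7 of its 8 markers were highest in APC-KI replicate 2. The smooth muscle sum was 174 to 445 CPM in APC-WT and 925 to 1539 CPM in APC-KI tumours, highest in APC-KI replicate 3. The part of these cell types in the levels of the 10 members was not tested.

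**Figure D5:**
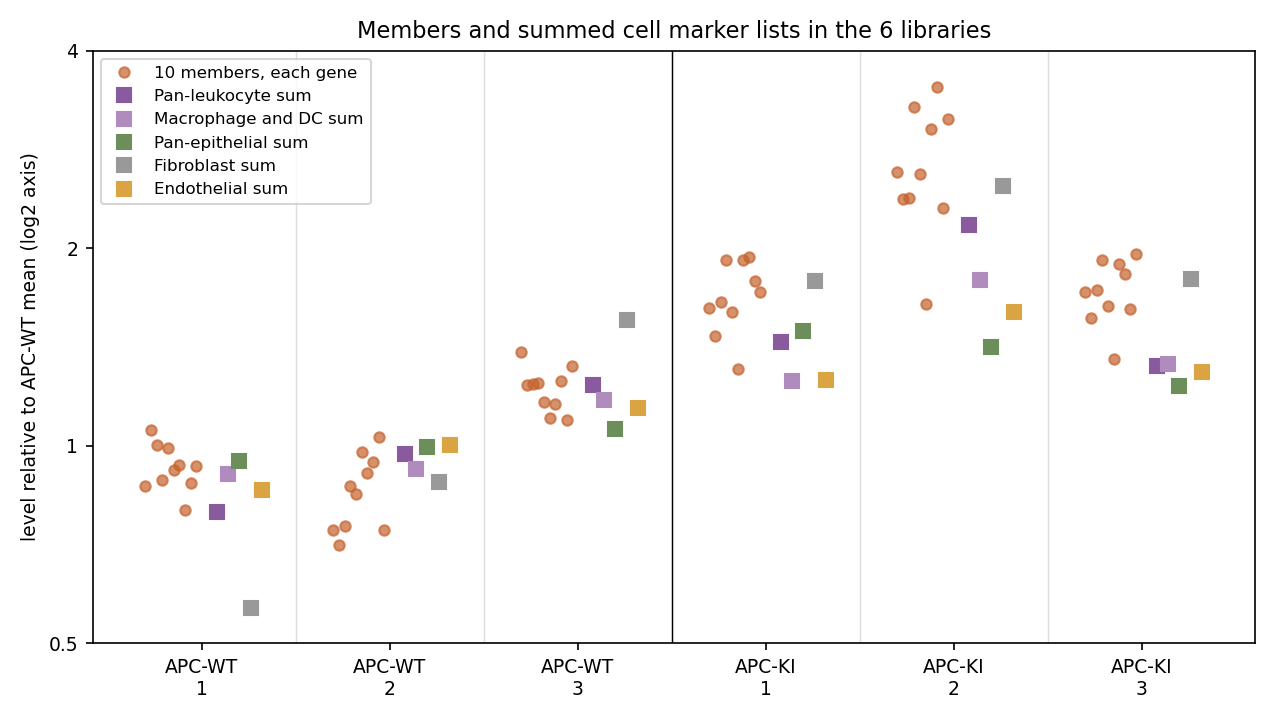
Level of each member (circles) and summed CPM of 5 cell marker lists (squares) in each library, relative to the mean of the 3 APC-WT libraries, on a log2 axis. The members are highest in APC-KI replicate 2, as are the pan-leukocyte, macrophage and dendritic cell, fibroblast and endothelial sums, while the pan-epithelial sum is highest in APC-KI replicate 1.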

How the data were processed

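The authors deposited raw counts per Ensembl gene for the 6 libraries, made with a TruSeq Stranded mRNA kit per the labels' protocols. The submitters' processing notes name STAR, cutadapt 2.5, Trim Galore 0.6.4, DESeq2 1.37.6, GRCm38 and mm10. How reads were assigned to genes, by strand or not, and on which annotation is not given in the sources used here.

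GENCODE M21 gave symbols for 52093 of 53700 identifiers. After filterByExpr and TMM scaling, group was tested in edgeR 4.0.16 (robust glmQLFit, R 4.3.3), with Benjamini-Hochberg adjustment over 19127 genes and a threshold of 0.05. Libraries of a group differed beyond sampling noise (chi-square per gene 36.4 to 104.3). The labels do not say that each library is a separate animal, so p-values measure the spread between these samples. Ratios were tested with scipy 1.17.1 and adjusted over 6. Of these, 3 were added after values were seen (H2-K1 and H2-D1 to B2m, Tap1 to Tapbp, Tap1 to Psmb9). The motifs were added after sequences were seen.

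The members, lists and tests were chosen with earlier results of these data known. Named were all members, 11 preset genes (of which 1 is not reported here), up to 4 more per pathway list and up to 3 per marker list by smallest p, and the 5 genes most like the members. Alternatives were DESeq2 1.42.0, limma-voom (limma 3.58.1), other factors and filters, a replicate block, fewer genes or libraries and a Y-linked covariate.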

Additional observations from a re-analysis of the deposited data

How the results depend on the processing

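All 10 members kept a positive log2 change under all 17 alternative fits. Neither the members nor the 3 subunit ratios overlapped between the groups, so leaving out libraries could hardly reverse a sign. The 8 members that passed remained 8 in number with RLE factors, upper-quartile factors, library totals only, the stricter filter and the removal of mitochondrially encoded and the 10 most abundant genes, and were 9 with limma-voom and 10 with DESeq2. Without a filter 5 passed, with 11% of 32292 genes called. In the 4 Y-negative libraries, and with a covariate for Y-linked counts, 0 passed in edgeR (3 and 4 at an unadjusted p under 0.05), and the calls among all genes fell from 3847 to 330 and 415. Only APC-WT replicates 1 and 2 held Y-linked counts, so the covariate fit also sets APC-WT replicate 3 alone against APC-KI. The median log2 change of the members was 0.76 in both fits, which are not separate evidence. With 1 library left out the members that passed ranged from 1 to 9 and all calls from 1159 to 3927. The log2 differences of the 3 subunit ratios ranged from 1.02 to 1.33, from 0.90 to 1.41 and from 0.77 to 1.02 with 1 library left out. With the replicate number as a block 2 members (Psmb8 and Psmb10) and 1660 genes passed. No pairing by replicate number was seen. The deviations of same-numbered libraries correlated at 0.03, −0.07 and −0.18, and 5 of the 6 libraries correlated best with a library of another number. With so few libraries per group these values cannot exclude a pairing. In all, 120 of 172 comparisons with an alternative gave the same outcome, passing or not, while 47 lost a call and 5 gained a call. B2m and H2-K1 did not pass in the main fit, so for them the same outcome means no call. The comparisons include H2-K1 and H2-D1 each set against the summed class I row. Depth was not limiting for the members, which had at least 1172 counts in each library, while Ifng had as few as 7. The cause of the lost calls was not tested.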
